A study of Homo sapiens with 2 samples.

Results

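The genes that write, erase and read histone acetylation were compared between SUDHL6 and HT cells, which are both established human diffuse large B cell lymphoma lines. The list named 39 genes, and a gene had a value where a probe set of the array named that gene and no other. This held for 34 of the 39 genes, of 14232 genes with a value in all, and each of the 34 rested on 1 probe set. Total RNA of untreated SUDHL6 and untreated HT cells, kept in serum-containing RPMI with antibiotics, was hybridised to Affymetrix exon arrays, with 1 array per line, and the series title places the work in a study of a small-molecule inhibitor of PRC2 (Polycomb repressive complex 2). The values are on the log2 scale after RMA, which removes background, brings the arrays to a common distribution and combines the probes of a probe set into 1 value. Each line is 1 tumour-derived line read by 1 array, so a difference is one between these 2 RNA samples and has no spread between replicates to be set against. No test was therefore made.

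Acetyltransferases move an acetyl group from acetyl-CoA to lysine residues of histone tails, which loosens chromatin and marks active promoters and enhancers. Deacetylases remove it, the zinc-dependent HDAC enzymes by hydrolysis and the sirtuins with NAD as a co-substrate, and bromodomain proteins bind the acetylated lysine. In germinal centre B cells the repressor BCL6 recruits corepressors that carry HDAC3, while CREBBP and EP300 acetylate the same enhancers. Both of these acetyltransferase genes are known to be mutated often in lymphomas of germinal centre origin, and one of the lysines that they acetylate on histone H3 is the lysine that PRC2 methylates. The arrays measured RNA levels, and neither sequence nor protein.

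A line's dim level, the 95th percentile of 225 olfactory receptor genes taken not to be used by these cells, was 3.81 in SUDHL6 and 4.11 in HT. The central 95% of the differences of these 225 genes, SUDHL6 minus HT, ran from -1.03 to 1.26. Differences of 1 thus occurred among dim genes too. Genes are counted as different below where SUDHL6 minus HT, on the log2 scale, was 1 or more in either direction and the higher of both values lay at or above the dim level of that line. The lines were checked against B cell markers, which both should hold, so an exchange of the 2 labels would not show. All 7 with a value reached the dim level, as did 9405 of all 14232 genes, so reaching it is a weak check. The 7 included CD79A (6.47 in SUDHL6 and 6.58 in HT), PAX5 (7.00 and 7.63) and BCL6 (8.10 and 8.90). MS4A1, which encodes CD20, was the only one of them that differed by at least 1 (11.33 in SUDHL6 and 8.75 in HT). Of 8 T cell markers, CD3D, CD3E, CD3G, CD2 and CD4 were below the dim level in both lines. CD7 (5.49 in SUDHL6 and 5.73 in HT) and CD8A (4.40 and 4.25) were above it in both, and CD5 (3.84 and 3.77) was above it in SUDHL6 alone. The dim level was also reached by 2 of 5 NK cell, 2 of 6 myeloid and 3 of 4 erythroid and platelet markers, each with a difference under 0.5. Of 8 fibroblast and endothelial markers, 4 reached the dim level and LUM (2.38 in SUDHL6 and 6.22 in HT) and DCN (2.09 and 5.05) were higher in HT. The other 6 differed by less than 0.5, and the endothelial markers PECAM1, VWF and CDH5 lay under the dim level in SUDHL6 and in HT. The part of these markers in the differences below was not tested.

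Most acetylation genes stood at nearly the same level in both lines, and 3 stood far apart. Of the 34 genes, 31 reached the dim level where they were higher, and HDAC11, SIRT4 and SIRT6 did not. SIRT5 was higher in SUDHL6 by at least 1, and SIRT1 and KAT6B were higher in HT. These 3 are 9.68% of the 31, against 12.3% of all 9405 genes that reached the dim level, so the share was close to that of the array as a whole. SUDHL6 was higher for 5.3% of those 9405 genes and HT for 6.99%. The other 28 acetylation genes differed by less than 1, and 7 of the 31 (22.6%) differed by at least 0.5, against 32.6% of all genes that reached the dim level. At a difference of at least 1.5 the same 3 acetylation genes remained, 9.68% against 5.95% of all genes, so the order of the shares turns with the size asked for. The median difference was -0.04 over the 34 genes, as over all 14232 genes, where it was also -0.04. Above the dim level, the 25th and 75th percentiles of the difference were -0.28 and 0.14 for the acetylation genes, against -0.38 and 0.22 for all genes.

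**Figure D1:**
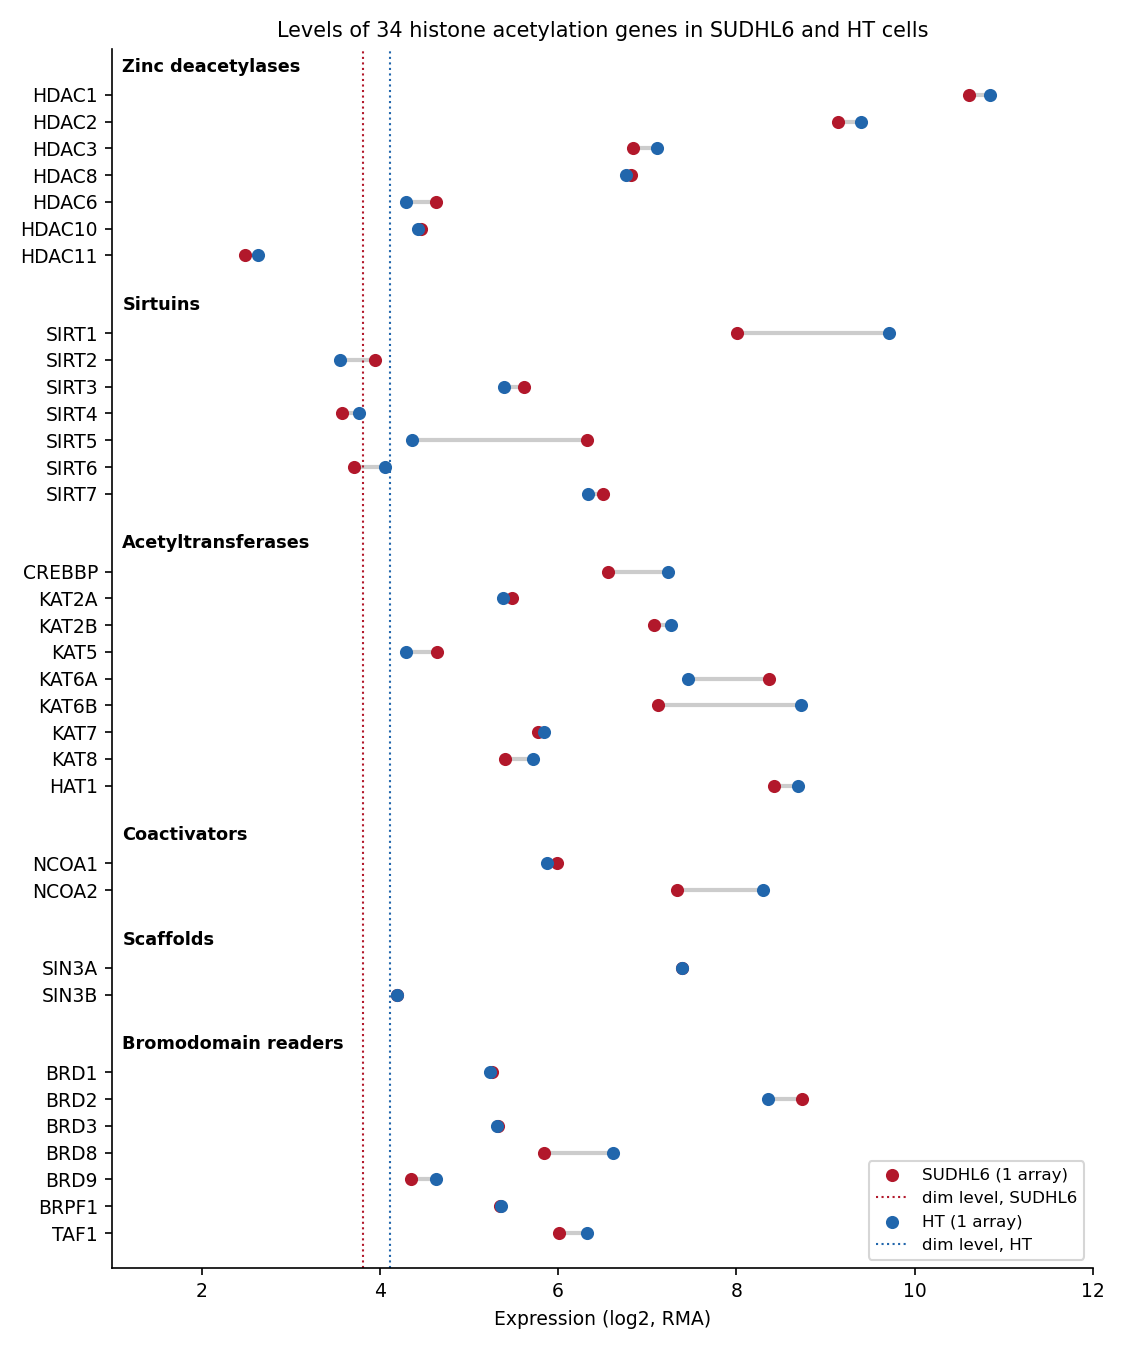
Expression (log2, RMA) of 34 histone acetylation genes, grouped by role, in SUDHL6 (red points) and HT (blue points), with 1 array per line, a grey bar joining the 2 values of a gene, and dotted lines at the dim level of each line. The longest bars belong to SIRT5 (6.33 in SUDHL6 and 4.36 in HT), SIRT1 (8.01 and 9.72) and KAT6B (7.12 and 8.73), while the 2 points of SIN3A, SIN3B, BRD1, BRD3 and BRPF1 nearly coincide.

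The plot of levels shows where each gene lay against the dim level, and the differences were next set beside genes of similar level, since differences between arrays vary with the level. For each acetylation gene these were all genes whose mean of both arrays lay within 0.5. Of the 31 genes above the dim level, 18 lay between the 25th and 75th percentiles of such genes and 13 outside. SIRT1, SIRT5 and KAT6B alone lay outside the central 95%. Among genes of similar level, a difference as large as that of SIRT1 was held by 2.1% of 477 genes, as large as that of KAT6B by 3.02% of 959, and as large as that of SIRT5 by 4.31% of 2295.

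**Figure D2:**
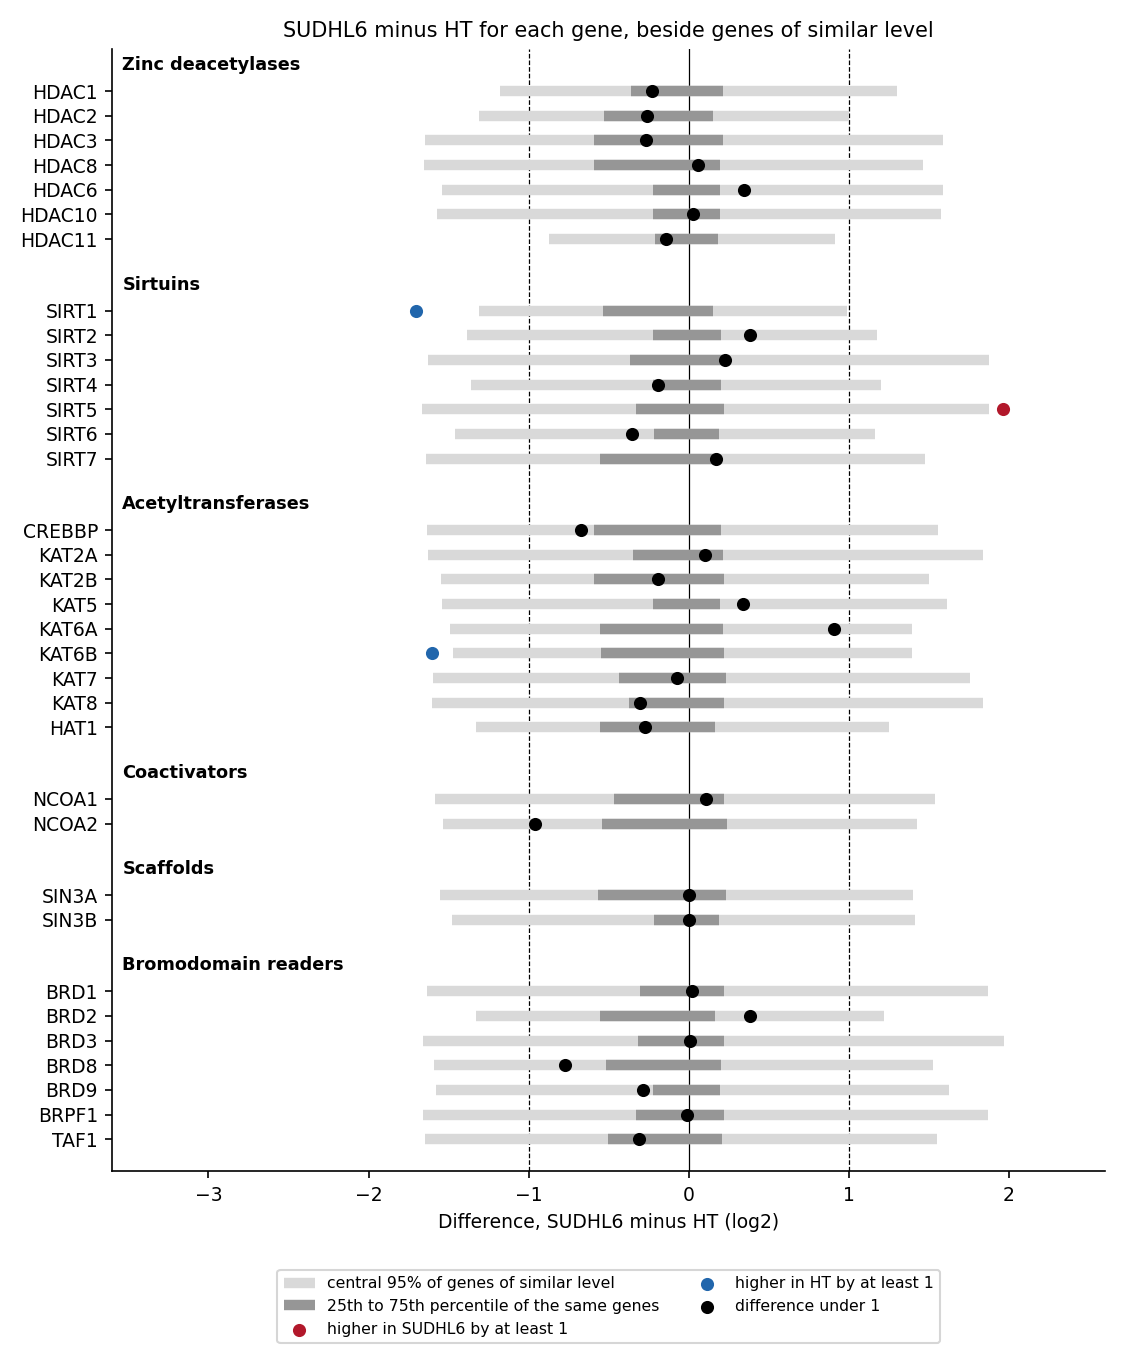
Difference between the lines (SUDHL6 minus HT, log2) for each of 34 histone acetylation genes, with bars for the central 95% (light grey) and the 25th to 75th percentile (dark grey) of genes of similar level, and dashed lines at -1 and 1. SIRT5 (red, 1.96) lies beyond the right end of its bar, and SIRT1 (-1.71) and KAT6B (-1.60), in blue, lie beyond the left end of theirs.

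The promoters of these 3 genes are shown because the genes differed most between the lines. They are the 250 bases before the gene start in RefSeq (GRCh38.p14), all on the plus strand, at chr10:67884406-67884655 for SIRT1, chr6:13574351-13574600 for SIRT5 and chr10:74825005-74825254 for KAT6B. Capitals mark matches on either strand to the GC box GGGCGG, bound by Sp1-type factors, and to the E-box CACGTG, bound by MYC and related factors. The CCAAT box CCAAT and the TATA box TATAAA were also searched and had no match in the 3.
SIRT1: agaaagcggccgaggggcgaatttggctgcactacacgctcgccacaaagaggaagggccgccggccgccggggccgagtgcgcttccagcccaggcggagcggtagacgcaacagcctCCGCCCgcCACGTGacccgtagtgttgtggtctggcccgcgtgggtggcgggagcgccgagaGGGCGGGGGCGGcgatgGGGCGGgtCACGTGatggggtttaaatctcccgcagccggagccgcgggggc
SIRT5: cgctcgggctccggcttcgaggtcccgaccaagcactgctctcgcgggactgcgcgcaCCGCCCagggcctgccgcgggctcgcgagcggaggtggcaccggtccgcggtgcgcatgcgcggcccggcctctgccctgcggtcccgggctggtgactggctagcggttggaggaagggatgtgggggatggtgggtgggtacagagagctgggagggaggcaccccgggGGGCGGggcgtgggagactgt
KAT6B: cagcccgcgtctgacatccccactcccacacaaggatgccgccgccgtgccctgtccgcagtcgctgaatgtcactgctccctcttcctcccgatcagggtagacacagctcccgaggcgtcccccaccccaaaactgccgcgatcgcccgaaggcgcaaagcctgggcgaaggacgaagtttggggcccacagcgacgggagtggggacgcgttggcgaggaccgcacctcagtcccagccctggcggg
The SIRT1 window held 4 GC boxes, 2 of which adjoin each other, and 2 E-boxes. The SIRT5 window held 2 GC boxes, and the KAT6B window had 0 matches. A GC box was present in 60% of the 30 acetylation genes with such a window, against 58.4% of 11386 genes with a value and a window. An E-box was present in 6.67% of the 30, those of SIRT1 and KAT5, against 7.96% of all. A CCAAT box was present in 26.7% against 34.7%, and a TATA box in 3.33%, SIN3A alone, against 8.21%. The windows of the acetylation genes had a median of 24 CpG dinucleotides, against 18 in all, and SIRT1 had 32, SIRT5 28 and KAT6B 24. The window of SIN3B had 3 and that of BRD3 48. These matches are letters in the reference sequence, and the arrays say nothing about factor binding or methylation there.

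The zinc-dependent deacetylases of classes I, IIb and IV differed by less than 0.5, as did 67.4% of all genes above the dim level. The class IIa enzymes are given further on with the related lists, HDAC9 among them. HDAC1 and HDAC2, the catalytic subunits shared by the NuRD, SIN3 and CoREST complexes, stood at 10.62 and 9.14 in SUDHL6, against 10.84 and 9.40 in HT. HDAC3, the catalytic subunit of the NCoR and SMRT corepressor complexes, stood at 6.84 in SUDHL6 and 7.11 in HT. All 3 were thus slightly lower in SUDHL6, with differences of -0.23 for HDAC1, -0.26 for HDAC2 and -0.27 for HDAC3, inside the 25th to 75th percentiles of genes of similar level. HDAC8, the remaining class I enzyme, stood at 6.82 in SUDHL6 and 6.76 in HT.

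Among class IIb and class IV enzymes, HDAC6, a mostly cytoplasmic deacetylase of tubulin, stood at 4.63 in SUDHL6 and 4.29 in HT. Its difference of 0.34 was the largest of the class I, IIb and IV enzymes and lay above the 75th percentile of genes of similar level, which was 0.20. HDAC10, a polyamine deacetylase, stood at 4.46 in SUDHL6 and 4.43 in HT. One further probe set, which HDAC10 shares with MAPK12, stood at 4.72 and 4.78, also with a difference close to 0. HDAC11, the class IV enzyme, was below the dim level in both lines, at 2.49 in SUDHL6 and 2.63 in HT. A value below that level does not show that the gene was silent.

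The sirtuins held both the largest positive and the largest negative difference of the 34 genes. SIRT1, a nuclear deacetylase of histones and of transcription factors such as p53, stood at 8.01 in SUDHL6 and 9.72 in HT, which is 3.26-fold higher in HT. SIRT5, a mitochondrial sirtuin that removes succinyl and malonyl groups more readily than acetyl groups, stood at 6.33 in SUDHL6 and 4.36 in HT, which is 3.90-fold higher in SUDHL6. The HT value of SIRT5 lay only a little above the HT dim level of 4.11, whereas both values of SIRT1 were far above it. The 2 differences were 3.67 apart on the log2 scale.

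The other sirtuins differed by less than 0.5. SIRT3, the main mitochondrial deacetylase, stood at 5.62 in SUDHL6 and 5.39 in HT. SIRT7, a nucleolar deacetylase, stood at 6.51 in SUDHL6 and 6.33 in HT. SIRT2, a mostly cytoplasmic deacetylase, stood at 3.94 in SUDHL6 and 3.55 in HT and reached the dim level in SUDHL6 alone. Its difference of 0.39 turned to -0.17 when values were raised to the dim level, so it has no settled direction. SIRT4, a mitochondrial sirtuin (3.58 in SUDHL6 and 3.77 in HT), and SIRT6, a chromatin-bound deacetylase (3.71 and 4.06), lay just below the dim level in both lines. Of the 5 sirtuin genes above the dim level, 2 were thus counted as different and 3 were not. The 2 are 40%, against 12.3% of all genes above that level, a share that rests on 5 genes only.

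Among the acetyltransferases, KAT6A and KAT6B differed in opposite directions. These paralogues are the alternative catalytic subunits of the MOZ/MORF complex, which acetylates histone H3. KAT6B stood at 7.12 in SUDHL6 and 8.73 in HT, which is 3.04-fold higher in HT. KAT6A stood at 8.37 in SUDHL6 and 7.46 in HT, and its difference of 0.91 was not counted as different. Of 958 genes of similar level, 16.9% differed by as much as KAT6A. Its difference came to 1.02 after quantile normalization and 1.03 after loess, which would count it as higher in SUDHL6. With the median difference of genes above the dim level subtracted it was 0.96, which would not. The differences of KAT6A and KAT6B were 2.52 apart on the log2 scale. The other subunits of the complex with a value differed less. The scaffold genes BRPF1 (5.35 in SUDHL6 and 5.36 in HT) and BRD1 (5.26 and 5.24) differed by under 0.5. So did ING5 (5.74 and 5.48) and MEAF6 (5.51 and 5.42), which encode its small subunits. The difference of ING5, 0.26, lay above the 75th percentile of genes of similar level, which was 0.23.

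CREBBP, the acetyltransferase of enhancers named above, stood at 6.57 in SUDHL6 and 7.24 in HT, and so differed by -0.67. Of 1359 genes of similar level, 31.6% differed by as much. EP300, its paralogue, had no probe set of its own. A probe set that it shares with MIR1281, a microRNA gene, stood at 8.28 in SUDHL6 and 8.12 in HT, so the 2 paralogues did not share a direction, if that probe set is taken as EP300. This was not tested.

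The remaining acetyltransferase genes differed by less than 0.5. KAT2A and KAT2B, alternative catalytic subunits of the SAGA and ATAC complexes, stood at 5.48 and 7.08 in SUDHL6, against 5.38 and 7.27 in HT. KAT7 and KAT8, which acetylate histone H3 or H4 in the HBO1, MSL and NSL complexes, stood at 5.77 and 5.41 in SUDHL6, against 5.84 and 5.71 in HT. HAT1, which acetylates newly made histone H4, stood at 8.42 in SUDHL6 and 8.69 in HT. Each of these 5 genes lay inside the 25th to 75th percentiles of genes of similar level. KAT5, the catalytic subunit of NuA4, stood at 4.64 in SUDHL6 and 4.30 in HT. Another probe set shared by KAT5 and RNASEH2C went the other way, at 6.80 in SUDHL6 and 7.03 in HT, so the direction of KAT5 is not settled either.

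The nuclear receptor coactivators and the corepressor scaffolds were each represented by 2 genes. NCOA1, a coactivator of nuclear receptors, stood at 5.99 in SUDHL6 and 5.88 in HT. NCOA2, its relative, stood at 7.34 in SUDHL6 and 8.30 in HT, and its difference of -0.96 was the nearest to 1 among the genes not counted as different. The scaffold genes SIN3A and SIN3B, whose proteins hold HDAC1 and HDAC2, were level between the lines. SIN3A stood at 7.39 in both lines. SIN3B held exactly the same value on both arrays, 4.19, as did 681 of the 22011 probe sets (3.09%). NCOA3 and NCOR1 were not analysed here.

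The 7 bromodomain readers with a value all differed by less than 1, as did 8250 of all 9405 genes above the dim level. BRD2, a BET protein that binds acetylated histone H4 and recruits transcription machinery, stood at 8.74 in SUDHL6 and 8.35 in HT and differed by 0.38. BRD3, another BET protein, stood at 5.33 in SUDHL6 and 5.32 in HT. BRD8, a bromodomain subunit of NuA4, stood at 5.84 in SUDHL6 and 6.61 in HT, and 23% of 1584 genes of similar level matched or passed its difference of -0.77. BRD9, a subunit of a BAF-type remodelling complex, stood at 4.34 in SUDHL6 and 4.63 in HT. TAF1, the largest subunit of TFIID, stood at 6.01 in SUDHL6 and 6.32 in HT. The difference of BRD2 lay above the 75th percentile of genes of similar level, and those of BRD8 and BRD9 below the 25th. BRD1, BRD3, BRPF1 and TAF1 lay between these percentiles. BRD1 and BRPF1 are described above with KAT6A and KAT6B, and BRD7 and BRPF3 were not analysed here.

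The position of the 3 genes along the chromosomes was examined next, since neighbouring genes can differ together. The neighbours were the 10 genes with a value on each side, by their order in RefSeq, and those above the dim level were used. Of 14 such neighbours of SIRT1 on chromosome 10, 13 were lower in SUDHL6 than in HT, 7 of them by at least 1 and 0 the other way. Their median difference was -0.99, and they included HERC4 (-1.13), PBLD (-1.97) and the DNA demethylase gene TET1 (-0.62). Of 11 neighbours of SIRT5 on chromosome 6, 10 were higher in SUDHL6, 6 of them by at least 1. Their median was 1.06, and they included NEDD9 (2.01), CD83 (2.22) and the PRC2 cofactor gene JARID2 (0.59). After the median of these neighbours was subtracted, -0.72 remained for SIRT1 and 0.91 for SIRT5.

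Of the 13 neighbours of KAT6B above the dim level, 11 were lower in SUDHL6, as were 53.5% of all genes above that level. Each of the 3 genes thus differed in the direction of most of its neighbours. The neighbours of KAT6B differed less, with a median of -0.16, and 1 was higher in HT by at least 1 (CHCHD1, -1.15) and 1 in SUDHL6 (VCL, 1.88). After the median of the neighbours was subtracted, KAT6B still differed by -1.45. Chromosome 10, which carries both SIRT1 and KAT6B, had a median of -0.26 over 356 other genes above the dim level, with 61 (17.1%) higher in HT and 18 (5.06%) higher in SUDHL6. Chromosome 6 had a median of 0.26 over 487 genes, with 66 (13.6%) higher in SUDHL6 and 21 (4.31%) higher in HT. The part of these chromosome-wide values in the differences of SIRT1, SIRT5 and KAT6B was not tested. The neighbours of the 4 next genes by size had medians of 0.22 for NCOA2, 0.0054 for KAT6A, 0.09 for BRD8 and -0.10 for CREBBP. KAT6A and NCOA2 lie on the same chromosome, 8, and differed in opposite directions. Chromosome 8 had a median of 0 over 321 genes above the dim level, with 39 (12.1%) higher in HT and 15 (4.67%) higher in SUDHL6.

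**Figure D3:**
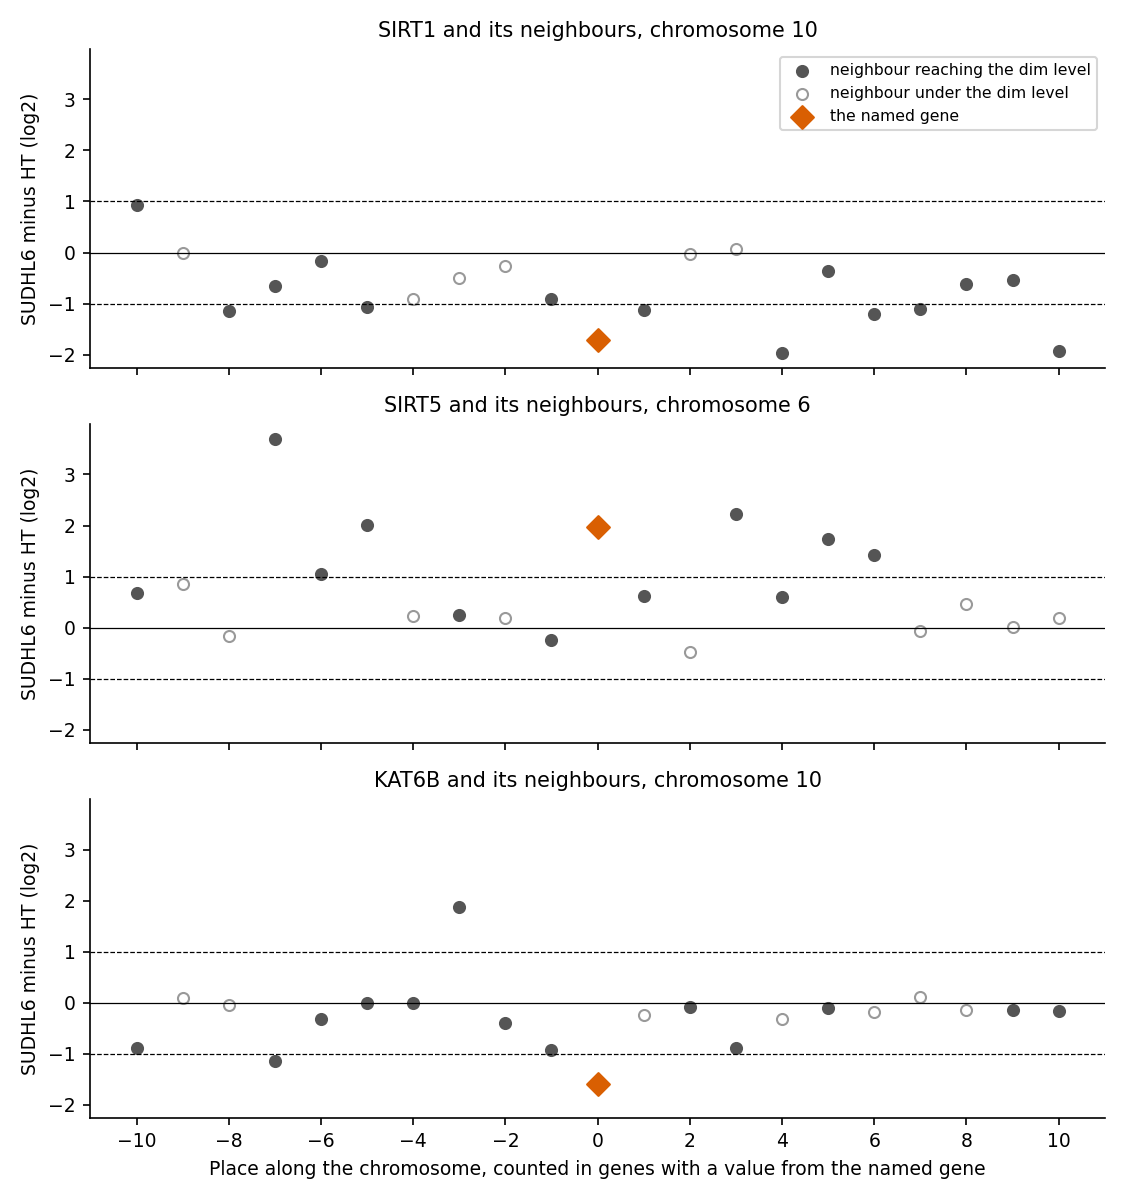
Difference between the lines (SUDHL6 minus HT, log2) for SIRT1, SIRT5 and KAT6B (orange diamonds) and the 10 genes with a value on each side, in chromosome order, with filled points for genes that reach the dim level, open points for those that do not and dashed lines at -1 and 1. Most filled neighbours of SIRT1 lie below 0 (median -0.99), most of SIRT5 above 0 (median 1.06), and 11 of the 13 of KAT6B below 0 but nearer to it (median -0.16).

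Partner subunits, further readers and cofactor genes were examined in 9 lists of 125 genes, of which 101 had a value and 96 reached the dim level. Of these, 5 were higher in SUDHL6, 6 were higher in HT and 85 differed by less than 1, or 11.5% counted as different, close to the 12.3% of all genes (5.3% higher in SUDHL6 and 6.99% higher in HT). Among partners of HDAC1 and HDAC2, the NuRD subunit gene CDK2AP1 stood at 6.58 in SUDHL6 and 8.93 in HT, 5.11-fold higher in HT, and the other 5 NuRD genes above the dim level were under 1. Of 9 SIN3 subunit genes 0 differed by at least 1 and 5 by at least 0.5 (55.6%, against 32.6% of all genes). Of those 5, ARID4B (7.30 in SUDHL6 and 6.38 in HT) and SAP130 (7.27 and 6.45) were higher in SUDHL6. SAP18 (8.71 in SUDHL6 and 9.43 in HT), BRMS1 (4.47 and 5.07) and SAP30L (5.15 and 5.77) were higher in HT. SUDS3, not among the 5, stood at 7.88 in SUDHL6 and 8.22 in HT. In the NCoR and CoREST list, TBL1X, a subunit of the HDAC3 complex, stood at 5.50 in SUDHL6 and 3.67 in HT and was at least 2.61-fold higher in SUDHL6, while its relative TBL1XR1 stood at 9.07 in SUDHL6 and 8.45 in HT. RCOR1, the CoREST scaffold, stood at 6.37 in SUDHL6 and 7.40 in HT, and its difference of -1.04 fell under 1 in size, to between -0.99 and -0.91, under the 3 rescalings.

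Acetyltransferase complexes held 2 further differences, in 1 of 12 SAGA and ATAC genes and 1 of 12 NuA4 genes. Each is 8.33%, against 12.3% of all genes above the dim level. MBIP, a subunit of the ATAC complex of KAT2A and KAT2B, stood at 7.33 in SUDHL6 and 9.14 in HT, 3.49-fold higher in HT, with 11 other SAGA and ATAC genes under 1. RUVBL1, an ATPase of the KAT5 complex, stood at 7.10 in SUDHL6 and 8.45 in HT, 2.54-fold higher in HT. Its partner RUVBL2 differed by -0.80, at 6.09 in SUDHL6 and 6.89 in HT. Of the 12 genes of this list with a value, 7 were lower in SUDHL6 (58.3%, against 52.9% of all genes). EPC2 (7.52 in SUDHL6 and 7.06 in HT) was among the other 5. Of 13 genes in the MOZ, HBO1, MSL and NSL list 0 differed by at least 0.5, against 32.6% of all genes above the dim level. OGT stood at 8.98 in SUDHL6 and 8.58 in HT, and MSL2 at 8.81 and 8.71.

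Among further readers, 3 were higher in SUDHL6 and 1 in HT of 22 above the dim level. These 4 are 18.2% of the 22, against 12.3% of all genes above the dim level (5.3% higher in SUDHL6 and 6.99% higher in HT). SP110, an interferon-induced nuclear body protein, stood at 8.18 in SUDHL6 and 5.98 in HT, 4.57-fold higher in SUDHL6. BAZ2B, a bromodomain protein, stood at 6.16 and 4.32, and SMARCA2, a BAF ATPase, at 7.09 and 6.07, in SUDHL6 and HT. ZMYND11, a reader of methylated histone H3, stood at 3.07 in SUDHL6 and 4.73 in HT and was at least 1.89-fold higher in HT. Of the 4 class IIa deacetylase genes, HDAC9 was at least 1.69-fold higher in SUDHL6, at 4.87 against 3.71 in HT, and HDAC4 (-0.11), HDAC5 (0.06) and HDAC7 (0.08) differed little. In the list of acetyl-CoA and NAD supply, DLAT, a subunit of pyruvate dehydrogenase, stood at 7.63 in SUDHL6 and 9.37 in HT, 3.34-fold higher in HT. NAMPT, which makes the NAD precursor that sirtuins depend on, stood at 7.88 in SUDHL6 and 8.22 in HT, and ACLY, which makes acetyl-CoA from citrate, at 7.24 and 7.19.

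**Figure D4:**
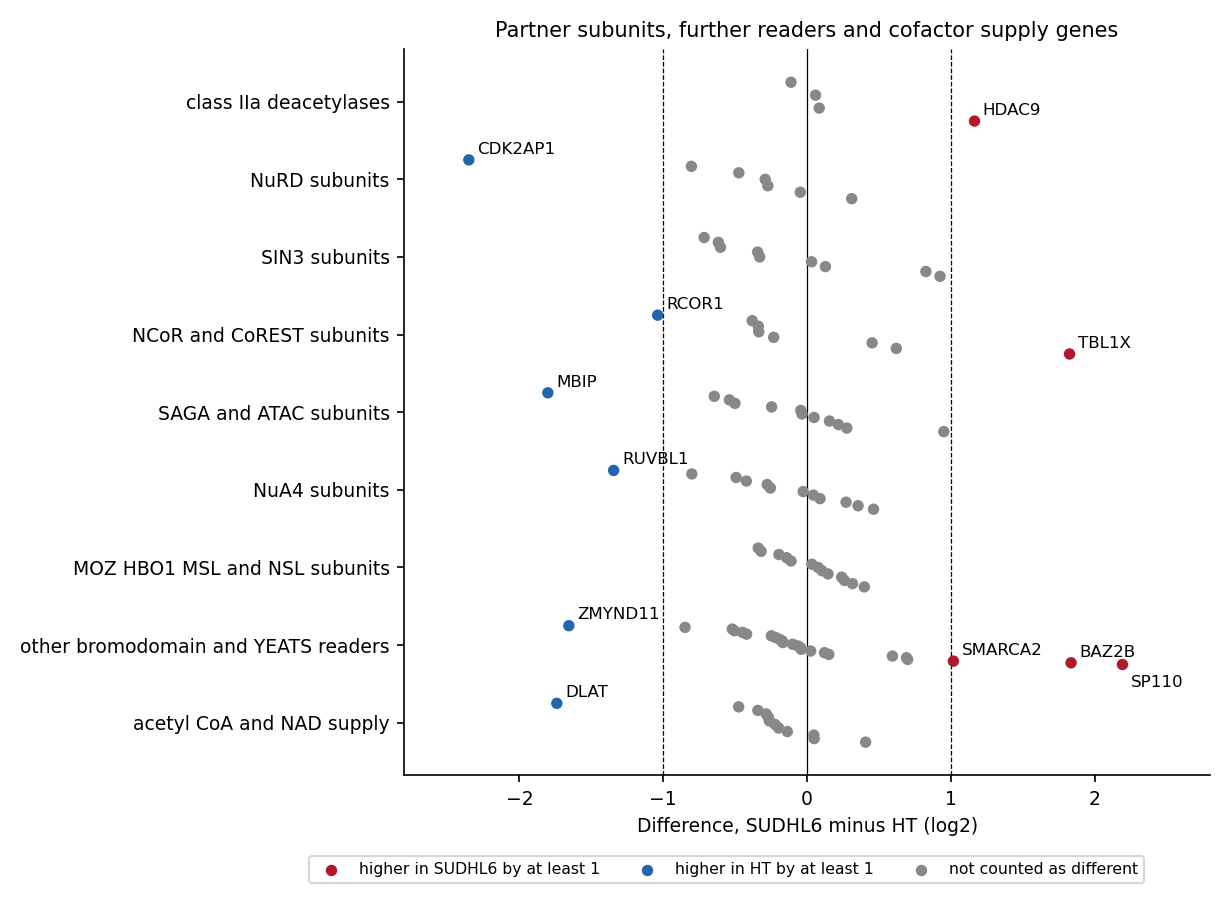
Difference between the lines (SUDHL6 minus HT, log2) for 101 genes in 9 lists of partner subunits, further readers and cofactor supply, with red points for genes higher in SUDHL6 by at least 1, blue points for genes higher in HT, grey points for the rest, and dashed lines at -1 and 1. CDK2AP1 (-2.35) and SP110 (2.19) lie furthest out. The MOZ, HBO1, MSL and NSL list of 13 genes stays within 0.5 of 0, as do 67.4% of all genes above the dim level.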

How the data were processed

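The authors deposited log2 values of 22011 probe sets for 2 samples, SUDHL6 and HT. RMA and Affymetrix Expression Console are named per the submitters' processing notes, with versions, settings and genome build not given in the sources used here. RMA compresses small differences between dim genes.

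Probe sets were named from GEO's platform annotation (14432 with 1 gene, 2408 with several, 5171 unlisted), with symbols updated by gene number to RefSeq GRCh38.p14 (14404 matched). Where a gene had several probe sets, the one with the highest mean was taken. A fold is the log2 difference raised back to a ratio, and "at least" marks a fold whose lower value was replaced by the dim level because it lay under it. Among 101 genes with several probe sets above the dim level, the differences of the 2 brightest lay a median of 0.36 apart. The number of arrays, 1 per line, limits the precision.

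The genes, lists, rules and thresholds were chosen with earlier results of these data known. Every listed acetylation gene with a value is named. Of each further list, up to 4 genes that differ by at least 1 are named by their size, or the 2 with the highest mean where none does. ARID4B, SAP130, BRMS1, SAP30L, TBL1XR1, RUVBL2, EPC2, ING5, MEAF6, NAMPT, ACLY, HDAC4, HDAC5, HDAC7, the markers and the neighbours were named after their values were seen. The alternatives tried were quantile normalization, loess, median centring, raised values, other dim levels, other probe set choices and other sizes of difference. Python 3.11.15, pandas 2.3.3, numpy 2.4.6 and statsmodels 0.14.6 were used.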

Additional observations from a re-analysis of the deposited data

How the results depend on the processing

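SIRT1, SIRT5 and KAT6B were counted as different in the same line after quantile normalization, loess and centring, the 3 alternatives that could change their differences, since each has 1 probe set and lies above the dim level. With the deposited values included, the ranges were -1.71 to -1.62, 1.96 to 2.03 and -1.60 to -1.48. The count of 3 acetylation genes became 4 after quantile normalization and after loess, with KAT6A added, 7 at a difference of at least 0.5 and stayed 3 at 1.5. The count of 11 genes in the related lists, of 96 above the dim level, became 29 at 0.5 (30.2%, against 32.6% of all genes). At 1.5 it was 7, beside 5.95% of all genes. It was 15 of 116 genes with probe sets naming several genes eligible, beside 12.1% of all genes above the dim level. With dim values raised it was 9, beside 7.05% of all genes. After centring it was 10, beside 12.1%, and with the dim level at the 99th percentile also 10, beside 13.8%. The median of the acetylation genes, -0.04, was 0.013 after quantile normalization, 0.016 after loess, 0.0066 after centring, -0.12 with dim values raised and -0.0705 with probe sets naming several genes eligible, so it has no settled direction. Raising values gives every gene dim in both lines -0.30 by construction. HDAC10, SIRT2, KAT5, KAT7 and BRPF1 changed sign under at least 1 alternative, and all 5 differed by less than 0.5. HDAC9 (0.76) and ZMYND11 (-0.92) fell under 1 in size with dim values raised, and ZMYND11 did not reach the dim level set at the 99th percentile. No paired analysis was possible because each line has 1 array.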

Other observations

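A further probe set that names TAF1 together with TAF1L, a retrocopy of it, stood below the dim level in both lines, at 1.81 in SUDHL6 and 1.90 in HT. On the whole array, 15 genes had several probe sets above the dim level and a difference of at least 1 on the brightest. The next probe set had the same direction in all 15, and its difference reached 1 in 7. SIRT1, SIRT5 and KAT6B each had a single probe set, so no such second reading exists for them.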
